A study of Homo sapiens with 6 samples.

Results

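The 10 genes described here encode the linker histone of the gene H1F0, a second linker histone outside the histone clusters (H1FX), and the replacement variants of histones H2A and H3 (H2AFZ, H2AFV, H2AFX, H2AFJ, H2AFY, H2AFY2, H3F3A and H3F3B). They were taken by symbol from a deposited table of 23555 gene rows, and each of the 10 symbols matched 1 row. The table holds RNA sequencing of IMR-32, a cell line from a human neuroblastoma that carries amplified MYCN and is labelled as wild type. In each group 3 libraries of poly(A)-selected RNA were sequenced after 24 h with 25 nM PTC-028, a compound used to inhibit the Polycomb protein BMI1, or with the solvent DMSO. No other agent or allele is named for either group, all libraries come from this 1 line, and nothing says whether the replicates were separate cultures, so a p-value here reflects the spread between libraries alone, which may be technical.

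Histones package DNA into nucleosomes, and a linker histone binds where DNA enters and leaves the nucleosome. Most histone genes lie in clusters, are transcribed in S phase and give mRNAs that end in a stem-loop in place of a poly(A) tail. Replacement variants are instead made from genes outside the clusters whose mRNAs are polyadenylated, so they are available throughout the cell cycle and are placed into chromatin by their own chaperones. The product of H1F0 is known for accumulating in cells that stop dividing and differentiate.

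Expression is given as TPM, a transcript abundance corrected for gene length and set to the same total in every library. The number of reads behind a value is not known from TPM. All 12 neuroblastoma markers examined passed a TPM of 1 in at least 3 libraries, with MYCN at 1089.6 ± 27.0 TPM and HAND2, a transcription factor of sympathetic neurons, at 498 ± 21.1 TPM in DMSO (SD, n = 3). The lowest of the 12 were TH at 10.6 ± 2.72 TPM and DBH at 4.10 ± 0.138 TPM in DMSO (SD, n = 3). The summed TPM of all 12 was 3036 to 3137 in DMSO and 3357 to 3418 in PTC-028. Of 10 markers of blood, endothelial, epithelial, fibroblast and liver cells with a row, 3 reached that level, the highest being COL1A1 at 15.8 ± 2.24 TPM and PTPRC at 3.82 ± 1.13 TPM in DMSO. TH and DBH thus lay below COL1A1, and DBH lay near PTPRC. The markers of other cell types summed to 20.1 to 26.0 TPM with DMSO and 23.1 to 27.0 TPM in PTC-028. Whether the higher sum of neuroblastoma markers played a part in the results below was not tested. In bulk RNA, fewer cells of a type and less RNA per cell cannot be told apart.

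The comparison of PTC-028 with DMSO asked which of these genes changed in the treated cells. H1F0 rose 1.86-fold, H2AFZ fell by 20.5% and H2AFX fell by 24.5%. The other 7 genes did not pass the test, which was limma on log2(TPM + 1) over 13836 genes with a threshold of 0.05 on the Benjamini-Hochberg adjusted p. That is 3 of 10 members called, where 1.88% of all tested genes were called, 0.867% as higher and 1.01% as lower. In 7 of the 10 genes the groups did not overlap, 2 with all PTC-028 libraries higher and 5 with all lower. Over all tested genes 24.0% showed no overlap, 13.4% as higher and 10.6% as lower. These shares cover genes of low TPM too, whereas most members were abundant. With a minimum TPM of 5, 310 of 10809 genes passed. No comparison with genes of like TPM was made, here or for the lists below. The median log2 fold change of the members was -0.10, beside 0.03 for all genes tested. The members were chosen with earlier results of these data known, so these counts and shares are given as a description.

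**Figure D1:**
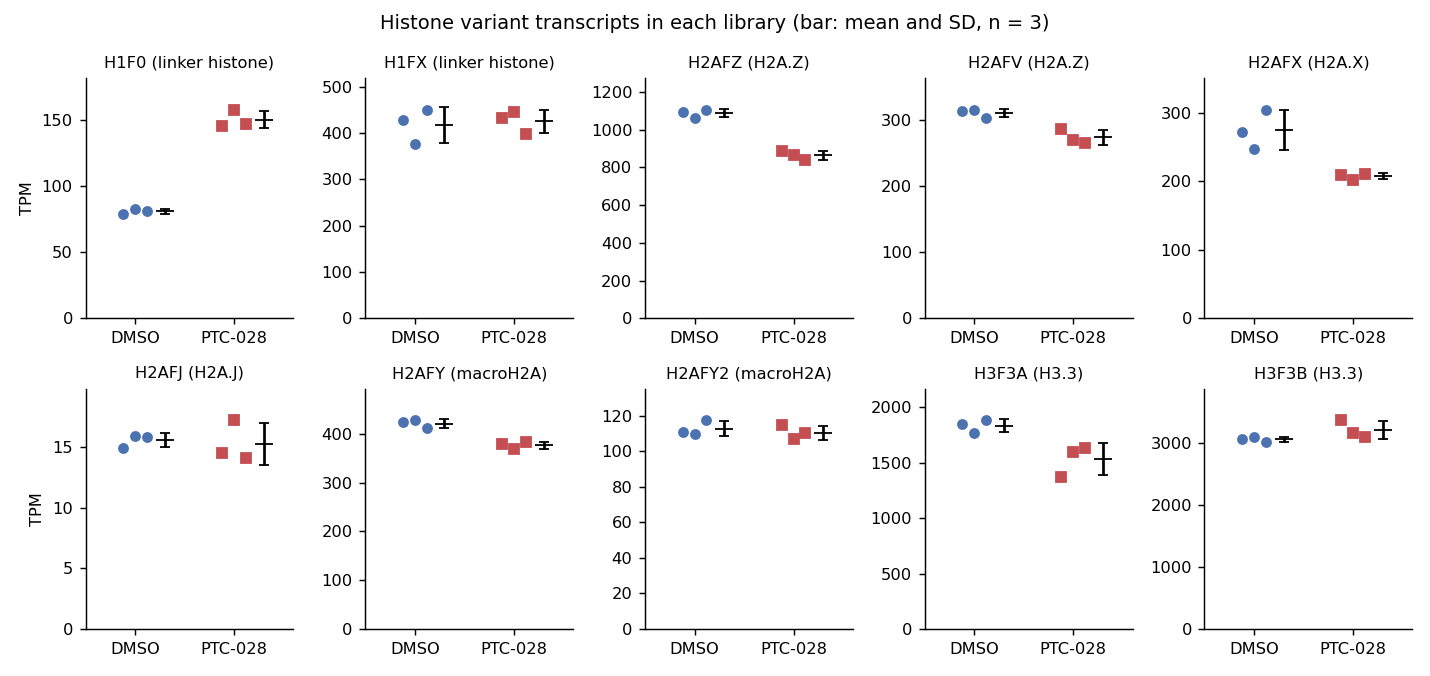
TPM (vertical axes, each from 0) of the 10 histone variant genes in the 3 DMSO libraries (circles) and the 3 PTC-028 libraries (squares), with the mean and SD beside them. H1F0 lies between 78.7 and 82.8 TPM with DMSO and between 146 and 158 TPM in PTC-028, while H2AFZ and H2AFX are lower in every PTC-028 library.

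H1F0 encodes its linker histone from a single exon on chromosome 22 (37805093 to 37807436, plus strand, GRCh38, GENCODE 29 coordinates). Its TPM was 78.7, 82.8 and 81.3 with DMSO and 146, 158 and 147 with PTC-028. Every treated library was therefore well above every control library, and the spread within each group was small. The mean went from 81.0 ± 2.06 to 150.4 ± 6.62 TPM (SD, n = 3 each), a log2 fold change of 0.88 ± 0.05 (SE) with a 95% confidence interval from 0.76 to 1.01. The limma adjusted p was 0.000834, and the unadjusted p was the third smallest of all 13836 genes. By size the rise was number 43 among the 120 genes that passed as higher. With any 1 library left out the log2 fold change was 0.85 to 0.91, and the gene passed each time (adjusted p up to 0.00832).

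H1FX, the gene of the linker histone H1.10, also has a single exon, on chromosome 3 (129314771 to 129316277, minus strand). Its TPM was 427, 375 and 451 in DMSO and 433, 445 and 397 in PTC-028, so the groups overlapped. The log2 fold change was 0.03 ± 0.07 (SE, 95% interval -0.15 to 0.20; limma adjusted p = 0.880), and its sign turned under median ratio scaling and without DMSO replicate 2 or PTC-028 replicate 2. H1FX was the more abundant of these linker histone genes in every library. Of the TPM of H1F0 and H1FX together, H1F0 made up 15.6%, 18.1% and 15.3% in DMSO and 25.2%, 26.2% and 27.1% in PTC-028. The share was 9.84 percentage points higher with PTC-028, with no overlap (exact permutation test, 2-sided, p = 0.1, the smallest that 3 against 3 libraries allow).

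Clustered linker histone genes were compared as the nearest relatives of H1F0. Of 6 listed, 4 had a row, 3 reached the level for testing and 1 rose, beside 0.867% of all tested genes. The log2 fold changes of the 3 ran from -0.20 to 0.92, with 2 above 0. The gene that rose was HIST1H1C, which encodes H1.2. HIST1H1C went from 8.54 ± 1.64 to 16.9 ± 1.72 TPM (SD, n = 3 each), a log2 fold change of 0.92 ± 0.14 (SE; limma adjusted p = 0.0208), beside 0.88 for H1F0, which had 81.0 TPM in DMSO. It no longer passed when DMSO replicate 1 or any of the PTC-028 libraries was left out (limma adjusted p 0.0528 to 0.0939). HIST1H1E, the gene of H1.4, was at 0.245 to 1.58 TPM with DMSO and 0.639 to 2.75 TPM with PTC-028 (limma adjusted p = 0.625). Poly(A) selection disfavours clustered histone mRNA, so these values describe only the polyadenylated part.

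The genes whose profile was most like that of H1F0 were found by Pearson correlation of log2(TPM + 1) over the 6 libraries, among genes with a mean TPM of at least 5. In order they were CYFIP2 (r = 0.998), the cell cycle inhibitor gene CDKN1A (0.998), CHGB (0.997), which encodes a granin of secretory vesicles, TSPYL1 (0.997) and the p53 target TP53INP1 (0.997). CYFIP2 went from a mean of 30.4 to 51.9 TPM, CDKN1A from 78.6 to 294 TPM and TP53INP1 from 11.3 to 26.3 TPM, whereas CHGB went only from 44.6 to 50.1 TPM and TSPYL1 from 68.9 to 77.9 TPM. CHGB and TSPYL1 did not pass the test. All these libraries fall into 2 groups that stand apart for H1F0, and the correlations are given as a description.

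H2A.Z is an H2A variant found around transcription start sites, made in near-identical forms by H2AFZ and H2AFV. H2AFZ lies on chromosome 4 (99948086 to 99950388, minus strand). Its TPM was 1096, 1064 and 1107 in DMSO and 889, 868 and 840 in PTC-028. All treated libraries were below all controls. The mean fell from 1089 ± 22.3 to 865 ± 24.6 TPM (SD, n = 3 each), with a log2 fold change of -0.33 ± 0.04 (SE, 95% interval -0.42 to -0.24; limma adjusted p = 0.00692). The gene passed with each library left out in turn, though narrowly without DMSO replicate 1 (adjusted p = 0.0498), and it did not pass without the mean-variance trend (0.0851).

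H2AFV, on chromosome 7 (44826791 to 44848083, minus strand), had 313, 315 and 303 TPM with DMSO and 286, 270 and 265 TPM in PTC-028. The groups did not overlap here either, but the gene did not pass, at a log2 fold change of -0.18 ± 0.05 (SE, 95% interval -0.29 to -0.08; limma adjusted p = 0.109). H2AFZ made up 77.8%, 77.1% and 78.5% of the TPM of both genes in DMSO and 75.6%, 76.3% and 76.0% in PTC-028. The difference was -1.84 percentage points (exact permutation test, 2-sided, p = 0.1), with no overlap. Together they went from 1399 ± 17.3 to 1139 ± 35.1 TPM (SD, n = 3 each), a difference of -18.6%.

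H2A.X is the variant that is phosphorylated around DNA breaks. Its gene H2AFX has 1 exon on chromosome 11 (119093854 to 119095467, minus strand) and is known to give both a stem-loop and a polyadenylated mRNA, of which poly(A) selection favours the second. H2AFX had 273, 248 and 305 TPM with DMSO and 210, 202 and 210 TPM in PTC-028. The treated libraries were tightly grouped below controls that spread widely. The mean fell from 275 ± 28.7 to 208 ± 4.43 TPM (SD, n = 3 each), a log2 fold change of -0.40 ± 0.07 (SE, 95% interval -0.57 to -0.23; limma adjusted p = 0.0415). It no longer passed with DMSO replicate 1 or any of the PTC-028 libraries left out (limma adjusted p 0.115 to 0.146), nor under median ratio scaling (0.0655), without a filter on low values (0.118) or without the trend (0.129). With 1 library left out the log2 fold change was between -0.47 and -0.32.

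H2A.J, an H2A variant that differs from clustered H2A mainly at its C-terminal end, was encoded by the least abundant gene of the set. H2AFJ, on chromosome 12 (14774383 to 14778002, plus strand), had 14.9, 16.0 and 15.9 TPM with DMSO and 14.5, 17.2 and 14.1 TPM in PTC-028. The groups overlapped, and the gene did not pass, at a log2 fold change of -0.03 ± 0.10 (SE, 95% interval -0.26 to 0.20; limma adjusted p = 0.896). Its sign turned without PTC-028 replicate 1 or 3.

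Promoters of the genes that fell are shown to let their proximal sequence be compared with that of H3F3B, which was not lower. The RefSeq promoter table (GRCh38.p14, 250 bases before to 50 after a start) matched 9 of the 10 members, all but H1F0, with 13 windows. The H2AFZ window is chr4:99950226-99950525 on the minus strand, the H2AFX window chr11:119095416-119095715 on the minus strand, and the H3F3B window chr17:75779730-75780029 on the minus strand. Capitals mark the CCAAT box (CCAAT or its reverse ATTGG), the TATA box (TATAAA or TTTATA) and the cell cycle genes homology region (TTTGAA or TTCAAA, and TTCGAA), all written 5′ to 3′.
H2AFZ: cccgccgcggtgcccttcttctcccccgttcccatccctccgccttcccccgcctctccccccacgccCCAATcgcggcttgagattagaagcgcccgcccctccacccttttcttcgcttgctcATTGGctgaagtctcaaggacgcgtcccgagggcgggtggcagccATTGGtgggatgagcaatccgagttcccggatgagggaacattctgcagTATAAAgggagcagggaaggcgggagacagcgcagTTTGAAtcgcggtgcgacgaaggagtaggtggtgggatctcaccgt
H2AFX: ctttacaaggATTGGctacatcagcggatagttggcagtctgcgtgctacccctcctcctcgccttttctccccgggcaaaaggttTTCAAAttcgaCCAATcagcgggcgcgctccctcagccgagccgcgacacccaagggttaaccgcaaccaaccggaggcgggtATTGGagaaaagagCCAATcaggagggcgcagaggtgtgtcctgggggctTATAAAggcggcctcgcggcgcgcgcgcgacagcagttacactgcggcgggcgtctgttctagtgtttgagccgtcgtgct
H3F3B: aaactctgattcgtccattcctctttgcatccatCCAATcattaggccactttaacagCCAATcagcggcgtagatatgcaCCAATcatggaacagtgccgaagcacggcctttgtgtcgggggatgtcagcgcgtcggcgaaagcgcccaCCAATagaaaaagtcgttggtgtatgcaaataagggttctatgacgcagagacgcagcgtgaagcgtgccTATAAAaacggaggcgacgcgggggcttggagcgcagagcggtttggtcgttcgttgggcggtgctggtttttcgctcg
The H2AFZ window held 3 CCAAT boxes, the H2AFX window 4 and the H3F3B window 4, and each held 1 TATA box. Both H2AFZ and H2AFX held 1 TTTGAA match, which H3F3B did not. It was also absent from H2AFV, H2AFY and H3F3A, whose PTC-028 libraries were all lower, and from H1FX, H2AFJ and H2AFY2, whose groups overlapped. H3F3A and H2AFY each have several of the 13 windows, and some of those of H3F3A overlap. By gene, 7 of the 9 matched members held CCAAT. Of the 13 windows, 9 held CCAAT, beside 34.6% of 35116 RefSeq windows of the same length. For TATAAA it was 4 windows, beside 11.5%, and for TTTGAA 2, beside 15.2%. TTCGAA was found in 1 window, that of H2AFV, beside 1.45%. The E2F letters TTTCCCGC and TTTGGCGC, searched on both strands, were in 0 of the 13 windows, beside 1.63% and 0.652%. None of the motifs overlapped another in the printed windows, and these matches describe letters only.

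MacroH2A carries a large extra domain and is found on silent chromatin such as the inactive X chromosome. H2AFY, the gene of macroH2A1 on chromosome 5 (135333900 to 135399914, minus strand), had 425, 428 and 412 TPM with DMSO and 379, 369 and 383 TPM in PTC-028. The groups did not overlap, and the gene did not pass, at a log2 fold change of -0.16 ± 0.04 (SE, 95% interval -0.25 to -0.07; limma adjusted p = 0.0949). H2AFY2, the gene of macroH2A2 on chromosome 10 (70052796 to 70112280, plus strand), had 111, 110 and 118 TPM with DMSO and 115, 107 and 110 TPM in PTC-028. These groups overlapped (log2 fold change -0.03 ± 0.05, SE; limma adjusted p = 0.822), and the sign turned without DMSO replicate 3. The share of H2AFY2 in the TPM of both genes was 21.1% ± 0.938 in DMSO and 22.7% ± 0.492 in PTC-028 (SD, n = 3 each; exact permutation test, 2-sided, p = 0.1).

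**Figure D2:**
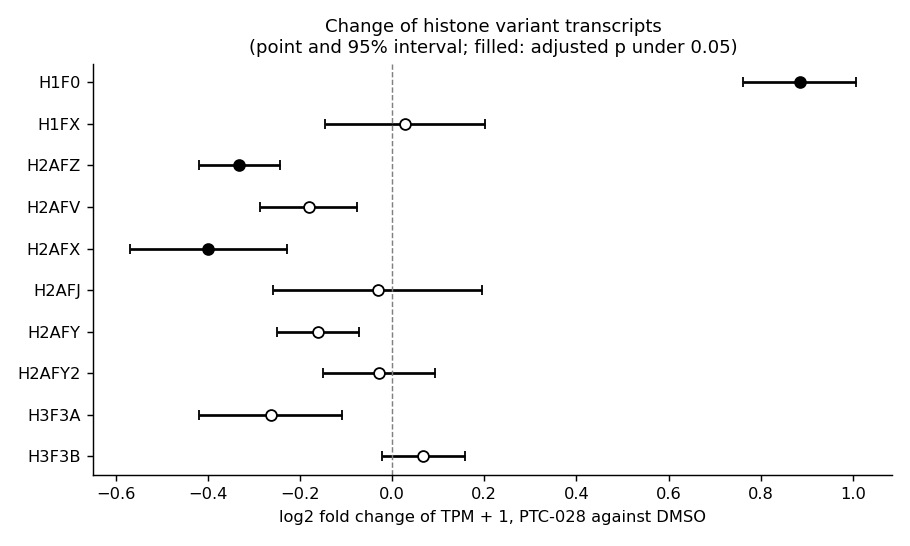
Log2 fold change of TPM + 1 in PTC-028 against DMSO (horizontal axis) for the 10 genes, with 95% confidence intervals from limma, n = 3 libraries per group. Filled points are the genes that passed, H1F0 at 0.88, H2AFZ at -0.33 and H2AFX at -0.40, and the intervals of H2AFV, H2AFY and H3F3A also lie below 0 although their adjusted p did not pass.

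H3.3 is the H3 variant placed outside replication, at active genes by the HIRA complex and at repeats by DAXX and ATRX. H3F3A on chromosome 1 (226061851 to 226072001, plus strand) and H3F3B on chromosome 17 (75776434 to 75785893, minus strand) encode the same protein with different codons. H3F3A had 1853, 1773 and 1882 TPM with DMSO and 1369, 1601 and 1631 TPM in PTC-028. All treated libraries were lower, but PTC-028 replicate 1 stood well below the other two. The mean went from 1836 ± 56.7 to 1534 ± 143 TPM (SD, n = 3 each), and the gene did not pass, at a log2 fold change of -0.26 ± 0.07 (SE, 95% interval -0.42 to -0.11; limma adjusted p = 0.111).

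H3F3B was the most abundant gene of the set, with 3063, 3090 and 3003 TPM with DMSO and 3356, 3153 and 3092 TPM in PTC-028. The treated libraries were all higher, the lowest of them by less than the spread within a group. It did not pass, with a log2 fold change of 0.07 ± 0.04 (SE, 95% interval -0.02 to 0.16; limma adjusted p = 0.412). H3F3B shares 214 exonic bases with UNK, a gene on the opposite strand with a mean of 114 TPM. Genes on the opposite strand also share exonic bases with H2AFY (4968 and 509), H1FX (345), H2AFZ (223), H3F3A (26) and H2AFY2 (11). Of these, only the one at H2AFY2 had a row. Whether reads were counted by strand is not given in the sources used here.

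The table also listed H3F3AP4, a processed pseudogene of H3F3A on chromosome 2 (174719908 to 174720318, plus strand), among the genes of highest TPM. Its 411 bases match the H3F3A transcript at 411 of 411 positions from the start codon on, so a read that lies within this stretch has the same sequence for both. The H3F3B transcript matches it at 323 of 411 positions, or 78.6%. The first 60 bases of that stretch, from GENCODE 29 transcripts, show this, with capitals where a base differs from H3F3A.
H3F3A: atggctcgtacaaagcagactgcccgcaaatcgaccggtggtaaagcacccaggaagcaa
H3F3AP4: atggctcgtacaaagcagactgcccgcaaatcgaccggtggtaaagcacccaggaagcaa
H3F3B: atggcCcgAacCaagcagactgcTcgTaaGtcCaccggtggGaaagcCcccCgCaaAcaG
H3F3AP4 differed from H3F3A at 0 of these 60 bases and H3F3B at 13.

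H3F3AP4 had 1033, 1083 and 1012 TPM with DMSO and 1093, 834 and 841 TPM in PTC-028. PTC-028 replicate 1, the library with the lowest H3F3A, had the highest H3F3AP4, and there H3F3AP4 took 44.4% of the TPM of both rows against 34.0% to 37.9% in the other libraries. Added together, the rows gave 2886, 2855 and 2895 TPM with DMSO and 2462, 2435 and 2472 TPM in PTC-028. The sums did not overlap and differed by -14.7%, from 2879 ± 20.6 to 2457 ± 19.4 TPM (SD, n = 3 each), with less spread than either row. With the rows added before the fit, a choice made after seeing the data, the H3F3A value fell by 0.23 on the log2 scale and passed (limma adjusted p = 0.00987). TPM is per length and the pseudogene is shorter than the H3F3A transcript of 1088 bases. Weighted by these lengths, the sum went from 2230 ± 43.0 to 1882 ± 88.3 TPM (SD, n = 3 each), a difference of -15.6%. How the reads of the shared stretch were divided was not tested.

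**Figure D3:**
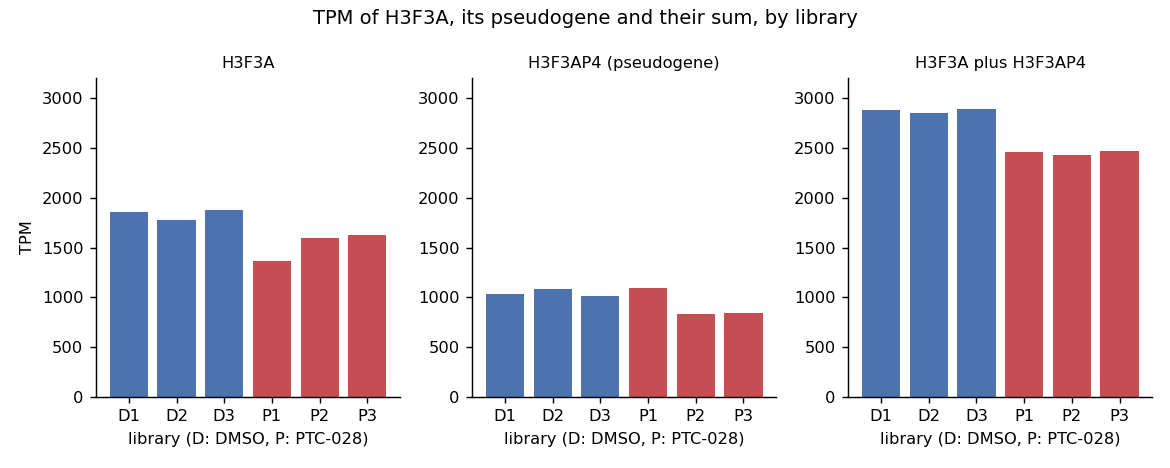
TPM (vertical axes, from 0) of H3F3A, of its pseudogene H3F3AP4 and of their sum in each library, DMSO 1 to 3 and PTC-028 1 to 3. The single rows move in opposite directions in PTC-028 replicate 1, while the sum lies at 2855 to 2895 TPM with DMSO and at 2435 to 2472 TPM in PTC-028.

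The share of H3F3B among the H3.3 genes was higher in every treated library. H3F3B made up 62.3%, 63.5% and 61.5% of the TPM of H3F3A and H3F3B in DMSO and 71.0%, 66.3% and 65.5% in PTC-028, a difference of 5.16 percentage points (exact permutation test, 2-sided, p = 0.1). With H3F3AP4 counted with H3F3A the share was 51.5% ± 0.532 in DMSO and 56.6% ± 1.06 in PTC-028 (SD, n = 3 each), a difference of 5.10 points. In all, 4 shares were tested, and the Benjamini-Hochberg adjusted p of each was 0.1. The TPM of H3F3A and H3F3B together went from 4888 ± 26.5 to 4734 ± 16.7 (SD, n = 3 each), a difference of -3.15%.

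**Figure D4:**
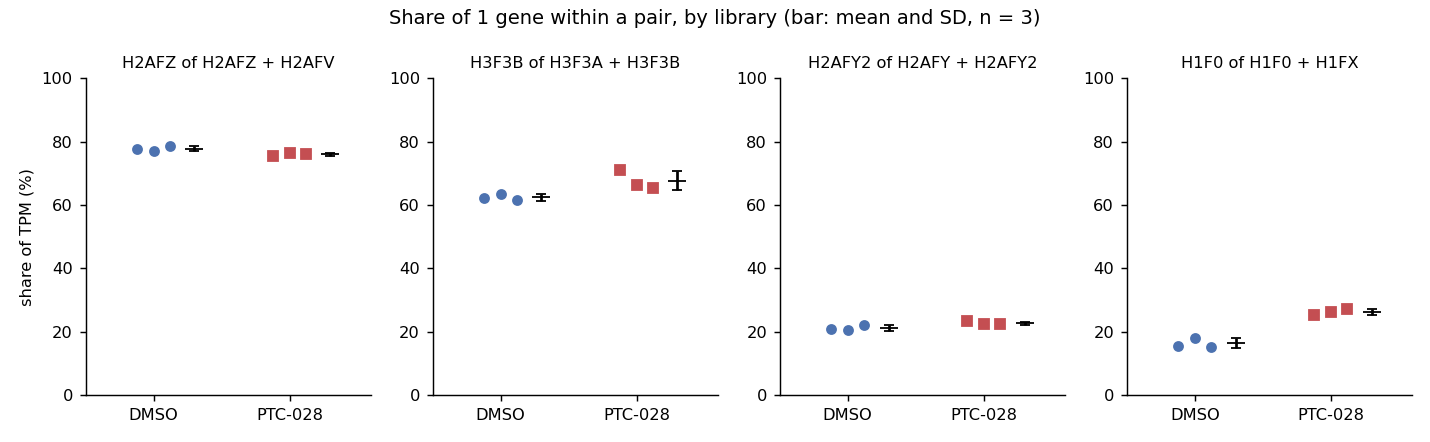
Share of 1 gene in the TPM of a pair (vertical axes, percent) in each DMSO and PTC-028 library, with the mean and SD beside the points. The share of H1F0 lies at 15.3% to 18.1% in DMSO and 25.2% to 27.1% in PTC-028, the largest shift of the 4 pairs shown.

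Ordered by TPM in DMSO, the genes were H3F3B, H3F3A, H2AFZ, H2AFY, H1FX, H2AFV, H2AFX, H2AFY2, H1F0 and H2AFJ. Neighbours in this order did not overlap in their libraries, other than H2AFY with H1FX and H2AFV with H2AFX. In PTC-028 H1F0 stood above H2AFY2, at 150.4 against 111 TPM, whereas in DMSO it stood below, at 81.0 against 113 TPM, and in neither group did the libraries of these genes overlap. H1FX and H2AFY, which overlapped in DMSO, also changed places. All 10 genes together gave 7611 ± 95.1 TPM with DMSO and 7159 ± 59.9 TPM with PTC-028 (SD, n = 3 each), a difference of -5.94%.

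Proteins that place, exchange or read the variants were examined as lists, and most did not pass. Of 8 tested genes for H3.3 deposition and reading, 0 passed in limma and 3 had an unadjusted p under 0.05, beside 17.3% of all tested genes. The chaperone gene DAXX has 4 rows between which its reads may be divided, and the most abundant had 90.1 ± 4.61 TPM with DMSO and 74.3 ± 3.52 TPM with PTC-028 (limma adjusted p = 0.0821). CABIN1, part of the HIRA complex, had 22.5 ± 2.11 and 26.8 ± 1.28 TPM (limma adjusted p = 0.222).

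Of 14 genes for H2A.Z exchange, 1 fell, beside 1.01% of all tested genes, and 13 did not pass. An unadjusted limma p under 0.05 was found for 2 of the 14, beside 17.3% of all tested genes. In 4 the groups did not overlap, beside 24.0%. The gene that fell was YEATS4, a subunit of the SRCAP and TIP60 complexes that exchange H2A.Z. YEATS4 had a mean of 98.2 ± 6.61 TPM with DMSO and 74.5 ± 4.52 TPM with PTC-028 (SD, n = 3 each; limma adjusted p = 0.0378). With 1 library left out it passed only without DMSO replicate 2 (limma adjusted p otherwise 0.0639 to 0.136), and it was also lost under median ratio scaling (0.0507). TRRAP, a large scaffold of the TIP60 complex, had 24.8 ± 3.99 TPM with DMSO and 29.9 ± 0.365 TPM with PTC-028 (limma adjusted p = 0.267).

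Of 11 tested genes that phosphorylate, dephosphorylate or read H2A.X, 0 passed in limma and 2 had an unadjusted p under 0.05, which is near the 17.3% of all tested genes. PPM1D, a phosphatase that removes this mark and is a known p53 target, had 38.2 ± 6.11 TPM with DMSO and 53.7 ± 1.14 TPM in PTC-028, with no overlap (limma adjusted p = 0.0796), and it passed without DMSO replicate 2 (0.0413). TP53BP1, a reader of chromatin at breaks, had 47.2 ± 4.01 and 55.6 ± 3.07 TPM (limma adjusted p = 0.193). Among 3 partners of macroH2A, 1 passed as lower, beside 1.01% of all tested genes. That was HELLS, a chromatin remodeller, which fell by 29.6%, 41.9 ± 3.35 TPM against 29.5 ± 1.77 TPM (SD, n = 3 each; limma adjusted p = 0.0294). With 1 library left out it passed only without DMSO replicate 3 (limma adjusted p otherwise 0.0634 to 0.130). PARP1, whose product poly-ADP-ribosylates chromatin proteins, had 328 ± 19.3 and 310.5 ± 18.9 TPM (limma adjusted p = 0.544).

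Among 7 chaperones of linker histones and of H2A with H2B, 0 passed in limma, 5 had an unadjusted p under 0.05 (17.3% of all tested genes), and in 5 all PTC-028 libraries were lower (10.6% of all tested genes). NASP, which carries H1 and H3, had 185 ± 12.5 TPM with DMSO and 147 ± 7.72 TPM with PTC-028 (limma adjusted p = 0.0546), and it passed under median ratio scaling (0.0295), at a minimum TPM of 5 (0.0359), with the rows of a symbol summed (0.0479) and without DMSO replicate 3 (0.0489). SUPT16H, a subunit of the FACT complex, had 148 ± 2.23 and 128 ± 2.91 TPM (limma adjusted p = 0.0684). Among 9 tested HMG genes, whose proteins bend DNA or bind nucleosomes in competition with H1, 0 passed in limma, 4 had an unadjusted p under 0.05 (17.3% of all tested genes), and 5 were lower without overlap (10.6% of all tested genes). HMGB1 had 1524 ± 36.6 and 1315 ± 72.3 TPM (limma adjusted p = 0.0761) and passed after quantile normalisation (0.0416). HMGB2 had 863 ± 8.51 and 744 ± 48.1 TPM (limma adjusted p = 0.0907).

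Of 11 other variant histone genes, many of them known from the germ line, 9 had a row and 2 reached the level for testing. CENPA, the H3 variant of centromeres, had 38.7 ± 3.69 TPM with DMSO and 40.9 ± 3.13 TPM with PTC-028 (limma adjusted p = 0.694), and H2BFM 1.98 ± 0.202 and 2.01 ± 0.969 TPM (0.955).

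**Figure D5:**
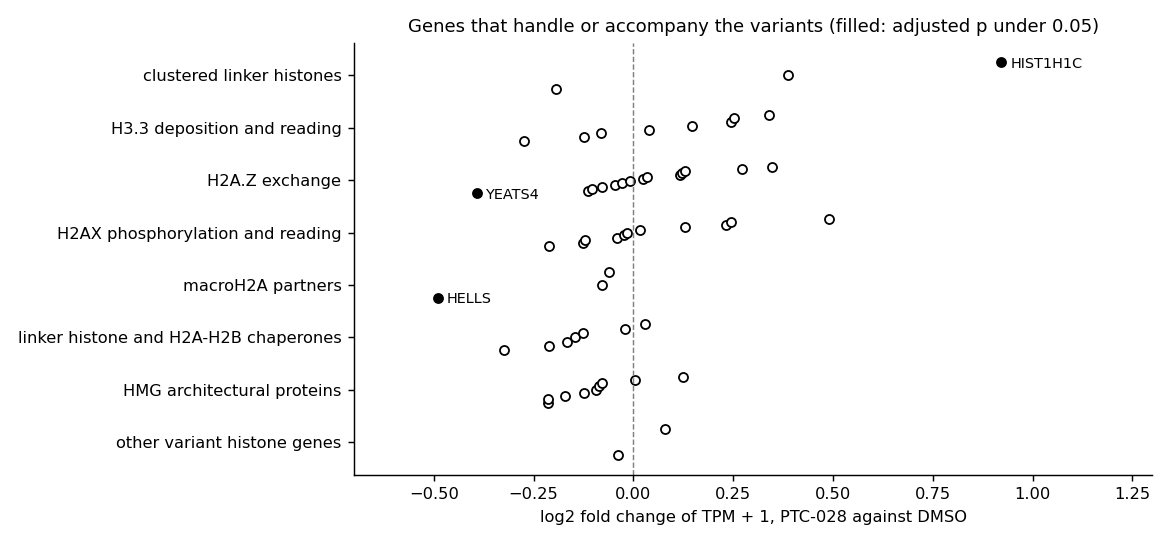
Log2 fold change of TPM + 1 in PTC-028 against DMSO (horizontal axis) for each tested gene of 8 lists of histone genes, chaperones and partners, 1 point per gene. Only the 3 filled points passed, HIST1H1C at 0.92, YEATS4 at -0.39 and HELLS at -0.49, and the chaperone and HMG lists lie mostly to the left of 0.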

How the data were processed

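The authors deposited a single table that gives TPM per gene for each of the 6 libraries, and the tests started from it unchanged. Per the submitters' processing notes the build was GRCh38, and nothing in the sources used here names an aligner, a quantifier or an annotation. Read depth cannot be had from TPM, so no counting intervals are given. Rows were named by Ensembl identifier from GENCODE 29, and where a symbol had several rows the one with the highest mean stood for it.

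Testing used limma 3.58.1 (R 4.3.3) and log2(TPM + 1), a scale that understates the change of low genes, and took the 13836 genes whose TPM reached 1 in 3 or more libraries. Treatment was the only term, eBayes used a mean-variance trend, and 2-sided p-values were adjusted over all genes. Shares within gene pairs were compared by exact permutation over 20 assignments. The procedure was run on simulated data with independent normal noise for each gene and no effect shared within a library. How well it recovers changes in libraries that do share such effects was not tested.

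All 10 members are named. From each other list the rule took up to 4 passing genes of smallest p or, with fewer than 2 passing, the 2 genes of smallest p (for markers, of highest mean TPM), and it added the 5 genes of mean TPM at least 5 closest to H1F0. H3F3AP4, UNK, TH and DBH lie outside it and were chosen after their values were seen. A result on 1 marker is not reported here. The members and lists were chosen with earlier results of these data known. Alternatives covered pseudocount, filter, scaling, trend, replicate block, row sums and removal of each library, and adding H3F3AP4 to H3F3A was chosen after seeing the data.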

Additional observations from a re-analysis of the deposited data

How the results depend on the processing

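H1F0 passed under every alternative run, with log2 fold changes of 0.85 to 0.91 and adjusted p up to 0.0158. The count of genes passing was 260, and 138 without a filter on low values, 131 with eBayes without a trend and 62 with the replicate number as a block. It was 74 to 226 with 1 library left out, the low counts being 76 without DMSO replicate 1 and 89, 74 and 99 without PTC-028 replicate 1, 2 and 3. The count of members passing was 3, falling to 1, H1F0, without a trend and with the block, 2 or 3 with 1 library left out, and 4 after quantile normalisation and with H3F3AP4 added, where H3F3A passed. With the block the limma adjusted p was 0.0553 for H2AFZ, 0.0828 for H2AFX, 0.0904 for HIST1H1C, 0.0935 for YEATS4 and 0.0698 for HELLS, so none of these passed. The replicate numbers are not stated to pair the samples. Deviations from the group mean correlated at 0.03, -0.03 and -0.10 between same-numbered libraries. None of the DMSO libraries correlated best with its own number, and among the PTC-028 libraries only replicate 1 did. With 3 libraries per group these values cannot decide whether the numbers pair the samples, so the fit with the block stands beside the main fit. Of the genes passing, 46.2% were higher, and 61.8% without a trend, 58.1% with the block and 60.9% without DMSO replicate 2. Without a filter on low values HIST1H1C, YEATS4 and HELLS did not pass either (limma adjusted p 0.0741, 0.0898 and 0.0734), nor did YEATS4 and HELLS without a trend (0.112 and 0.0742). The cause of each lost call was not tested.

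Signs turned only for genes that did not pass. H1FX was at -0.000517 and COL1A1 at -0.00390 under median ratio scaling, and COL1A1 at -0.0387 after quantile normalisation. With 1 library left out H1FX ranged from -0.0473 to 0.0841, H2AFJ from -0.12 to 0.0204, H2AFY2 from -0.0547 to 0.00106, COL1A1 from -0.12 to 0.13 and H2BFM from -0.25 to 0.24. With 1 library left out the shares moved by -2.18 to -1.49 points for H2AFZ, 3.45 to 6.23 for H3F3B, 1.21 to 2.10 for H2AFY2 and 9.33 to 10.7 for H1F0. Alternatives with all libraries were pseudocounts of 0.1 and 5, a minimum TPM of 5 and summing the rows of 1 symbol as well. The unknown read depth limits statements on the genes of lowest TPM.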
